A study of Mus musculus with 16 samples.

Results

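The mast cell granule proteases are 10 genes that were chosen by name: Mcpt1, Mcpt2, Mcpt4, Mcpt8, Cma1, Tpsb2, Tpsab1, Cpa3, Gzmb and Ctsg. They are 10 of the 39179 genes in the count files. RNA was sequenced from bone marrow derived mast cells (BMMCs) of C57BL/6 males aged 8 to 10 weeks, grown for 4 weeks with stem cell factor and IL-3. The mice were PEP+/+, with the phosphatase PEP encoded by Ptpn22, or PEP-/-, lacking it. All cells received IgE for 3 h, the only agent of the IgE group. The labels give its concentration as 0.05 µg/ml, while the study's methods give a higher one. In the IgE DNP group the antigen DNP was added at 200 ng/ml for 1 h. By the study's methods it was given coupled to bovine serum albumin, the form that cross-links the bound IgE. The IgE DEX group received the glucocorticoid dexamethasone at 1e-07 M for 8 h, and the IgE DNP DEX group received all 3 agents.

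Each of the 8 conditions had 2 libraries, so 16 libraries were measured. In each condition 1 library has a numbered title (1 to 8) and the other a lettered title (A to H). They are called numbered and lettered libraries here, and the labels do not say what the 2 sets had in common. The study calls the 2 libraries of a condition biological replicates, and how many mice or cultures they came from is not given in the sources used here. The p-values measure the spread between these libraries. Cultured BMMCs are a bulk population, in which fewer cells of a type and less RNA per cell cannot be told apart.

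Mast cells store large amounts of protease in their secretory granules, bound to the heparin proteoglycan core. Many chymases cut after aromatic residues, tryptases cut after lysine and arginine, and carboxypeptidase A3 removes residues from the end of peptides. Cross-linking of the IgE receptor releases these stores within minutes. Bone marrow cultures with stem cell factor and IL-3 give immature mast cells in which some of these proteases are abundant and others scarce. Genes of the chymase locus lie together on chromosome 14 with the granzyme genes and Ctsg, the tryptase genes lie on chromosome 17, and Cpa3 lies on chromosome 3.

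The libraries held 8612531 to 22143526 counted gene reads, with a median of 12814043.5. The 10 proteases took 5.56% to 7.75% of them. Levels are given as CPM, read counts scaled to a common library size with edgeR's TMM factors, and levels of different genes were compared only per length (RPKM, on exon lengths of GENCODE M21). Ptpn22 had 130 to 2799 reads in the PEP+/+ libraries and 0 to 55 in the PEP-/- libraries. The glucocorticoid targets Tsc22d3 and Fkbp5 rose with DEX, and the cytokines Il13 and Tnf rose with DNP. The numbered and the lettered libraries stood apart: 8463 of the 13305 genes tested, or 63.6%, differed between them in edgeR's quasi-likelihood test at an adjusted p under 0.05.

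Cpa3 was the most abundant of the proteases per length, with a median of 27036 RPKM over the 16 libraries and a range from 20882 to 38139 RPKM. It encodes carboxypeptidase A3 and took 3.12% to 5.34% of all gene counts, which placed it between rank 1 and rank 3 among all genes of a library. Cma1, the alpha-chymase that binds tightly to heparin, had a median of 12449 RPKM. Tpsb2, the tryptase of most mast cells, had a median of 4770 RPKM, and Gzmb, the granzyme that cuts after aspartate and is best known from cytotoxic lymphocytes, had 1083 RPKM. The lowest library of these 4 genes (189 RPKM, for Gzmb) lay above the highest library of the other 6 (77.6 RPKM, for Tpsab1).

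The next gene per length was Mcpt2, a chymase gene of mucosal mast cells, with a median of 41.5 RPKM. Mcpt8, the protease gene that marks basophils, had 28.3 RPKM. Mcpt4, the chymase of connective tissue mast cells, had 9.31 RPKM, and Tpsab1, the second tryptase gene, had 7.67 RPKM. Mcpt1, the main chymase of mucosal mast cells, had 3.13 RPKM, and Ctsg, cathepsin G of neutrophils and some mast cells, had 0.990 RPKM. The ranges of neighbouring genes among these 6 overlapped. In the C57BL/6 strain a change at a splice site leaves Tpsab1 transcripts without a functional tryptase, and the counts are per gene and do not show which transcripts were made.

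**Figure D1:**
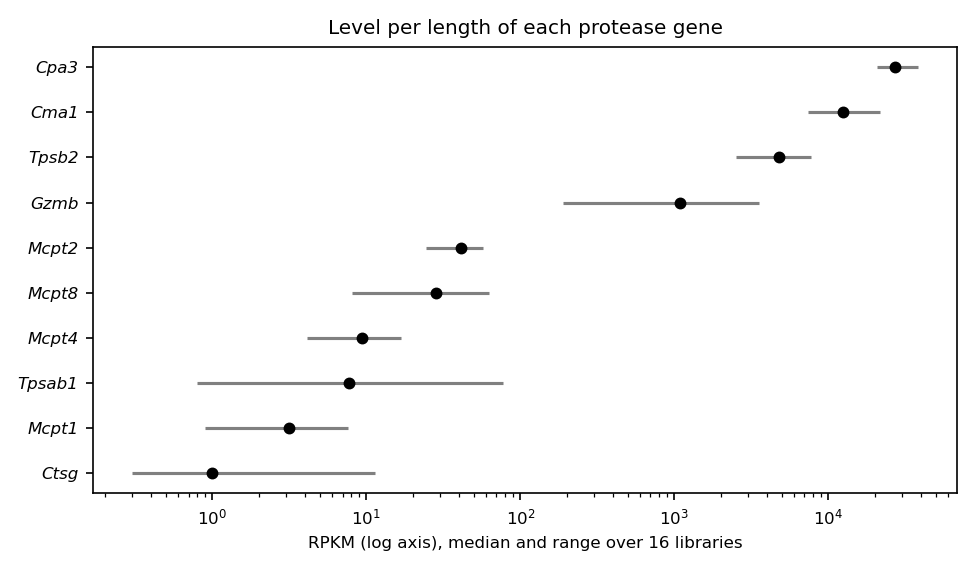
Level per length of the 10 protease genes in RPKM on a log axis, with the median (points) and the range (lines) over the 16 libraries. Cpa3, Cma1, Tpsb2 and Gzmb lie at 189 RPKM or more in each library, and the other 6 genes at 77.6 RPKM or less.

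All 10 genes passed the filter on low counts, and the lowest count of any was 5 reads, for Ctsg. Reads that aligned to several places were not counted, and 21.5% to 37.8% of alignments per library fell in that class. This share differed with treatment. It was 21.5% to 25.6% after IgE, 25.1% to 27.7% after IgE DEX, 24.0% to 31.5% after IgE DNP and 30.3% to 37.8% after IgE DNP DEX. Its part in the members' results was not tested. Mcpt4 and Cma1 share 5.48% and 5.38% of their 50-base windows exactly with another gene, and the other 8 members share none. A separate search allowed 2 mismatches and covered 27 protease genes only. There 23.0% of the windows of Mcpt4, 12.8% of those of Mcpt1 and 10.2% of those of Mcpt2 matched another gene, so these 3 chymase genes are less certain than the rest. The windows of Tpsb2 and Tpsab1 that matched each other within 2 mismatches were 1.16% and 0.869%.

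In GRCm38 (GENCODE M21) the members of the chromosome 14 locus run from Cma1 (ENSMUSG00000022225, chr14:55941451-55944675, minus strand) over Mcpt1 (ENSMUSG00000022227, chr14:56017971-56020384, plus), Mcpt2 (ENSMUSG00000022226, chr14:56042041-56044642, plus), Mcpt4 (ENSMUSG00000061068, chr14:56059629-56062313, minus), Mcpt8 (ENSMUSG00000022157, chr14:56082166-56085273, minus) and Ctsg (ENSMUSG00000040314, chr14:56099881-56102574, minus) to Gzmb (ENSMUSG00000015437, chr14:56258838-56262260, minus). Tpsab1 (ENSMUSG00000024173, chr17:25343245-25345562, minus) and Tpsb2 (ENSMUSG00000033825, chr17:25366305-25369098, plus) are neighbours on chromosome 17, and Cpa3 (ENSMUSG00000001865) is at chr3:20215620-20242181 on the minus strand. Introns of Mcpt8 and Cpa3 hold the microRNA genes Mir6949 and Mir7007, which share no exon with them.

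The promoter of Cpa3 is shown as that of the most abundant gene. It covers the 250 bases before the start of Cpa3 on the minus strand of GRCm38.p6, chr3:20242182-20242431, from RefSeq. Capitals stand at matches on either strand to AGATAA (a form of the GATA motif) and TGTGGT (the RUNX motif).

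Cpa3: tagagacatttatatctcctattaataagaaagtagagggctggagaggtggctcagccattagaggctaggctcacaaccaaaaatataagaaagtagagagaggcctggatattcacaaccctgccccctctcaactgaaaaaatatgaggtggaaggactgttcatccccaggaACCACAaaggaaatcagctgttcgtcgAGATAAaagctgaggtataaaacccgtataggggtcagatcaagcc

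A RefSeq promoter was found for 7 of the 10 members. Cpa3 was the only one of the 7 with the GATA letters in its window, which 9.99% of all 32851 promoters hold. The RUNX letters were in the windows of Cpa3, Mcpt1, Mcpt4, Mcpt8, Gzmb and Ctsg and not in that of Cma1, against 14% of all promoters.

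Antigen raised Tpsab1, whose log2 fold change was the largest among the 10 members. Its level after IgE alone was 4.55 and 11.9 CPM in PEP+/+ and 3.64 and 7.25 CPM in PEP-/-, with the numbered library given before the lettered one here and below. After IgE DNP it was 41.0 and 162 CPM in PEP+/+ and 29.5 and 101 CPM in PEP-/-. After IgE DEX it was 1.82 and 3.66 CPM in PEP+/+ and 1.66 and 2.54 CPM in PEP-/-, and after IgE DNP DEX 41.1 and 84.3 CPM and 20.3 and 62.0 CPM. Each of the 8 libraries with DNP lay above each of the 8 without it, and within each condition the lettered library was the higher.

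Averaged over genotypes, DNP raised Tpsab1 12.1-fold without DEX (log2 fold change 3.60 ± 0.63, SE, edgeR adjusted p = 0.00225). With DEX it raised the gene 21.2-fold (4.41 ± 0.66, edgeR adjusted p = 0.00132). The test was also passed within each genotype, where 3.84% to 7.22% of all genes passed (5.9% and 7.22% without DEX and 3.84% and 3.98% with DEX, in PEP+/+ and PEP-/-). Without DEX the log2 fold change was 3.63 in PEP+/+ (edgeR adjusted p = 0.034) and 3.56 in PEP-/- (edgeR adjusted p = 0.0328). With DEX it was 4.49 in PEP+/+ (edgeR adjusted p = 0.0208) and 4.32 in PEP-/- (edgeR adjusted p = 0.0292).

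Gzmb also stood higher with DNP in each matched pair of libraries. After IgE it was 2783 and 1372 CPM in PEP+/+ and 2788 and 1645 CPM in PEP-/-, and after IgE DNP 4810 and 2561 CPM and 5063 and 4064 CPM. After IgE DEX it was 535 and 272 CPM in PEP+/+ and 945 and 477 CPM in PEP-/-, and after IgE DNP DEX 1465 and 940 CPM and 1791 and 1358 CPM. Without DEX the groups with and without DNP overlapped when the sets were mixed, and the numbered library was the higher in each condition. With DEX they overlapped by the lowest DNP library and the highest library without DNP.

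With DEX, DNP raised Gzmb 2.57-fold (log2 fold change 1.36 ± 0.35, edgeR adjusted p = 0.0284). This call was lost without the numbered PEP+/+ IgE DNP DEX library (log2 1.21), the numbered PEP-/- IgE DNP DEX library (1.28), the lettered PEP+/+ IgE DEX library (1.15) or the lettered PEP-/- IgE DEX library (1.15), and with library totals in place of TMM (1.10). Without DEX the log2 fold change was 0.93 ± 0.35 and did not pass (edgeR adjusted p = 0.101). With the set as a block it was 0.97 and passed (edgeR adjusted p = 4.35e-05, against 4.35e-05 to 0.302 over all 23 alternatives). Within the genotypes Gzmb did not pass for DNP. With the block it passed in all 4 cases, at 0.84 in PEP+/+ and 1.10 in PEP-/- without DEX and 1.62 and 1.22 with DEX, where 21.1%, 26.2%, 22.3% and 19.7% of all genes passed.

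The other 8 members did not pass the test for DNP. Mcpt1 had a log2 fold change of 0.51 without DEX (edgeR adjusted p = 0.278) and 0.57 with DEX (edgeR adjusted p = 0.247), and it was higher with DNP in 8 of 8 differences between libraries of the same genotype and set. The same count of 8 of 8 held for Mcpt2, Mcpt8, Cma1, Tpsb2 and Cpa3. Their log2 fold changes were 0.17 (Cpa3) to 0.34 (Mcpt8) without DEX and 0.24 (Tpsb2) to 0.42 (Cma1) with DEX. The smallest log2 difference was 0.0016 for Mcpt8, 0.021 for Mcpt2, 0.042 for Tpsb2, 0.044 for Mcpt1, 0.10 for Cma1 and 0.12 for Cpa3. How many of all genes reach such counts was not determined, here and below. Mcpt4 was higher in 6 of 8 and Ctsg in 6 of 8. Mcpt4 had 0.52 and 0.30 and Ctsg 0.34 and -0.11. Library totals without TMM moved the median of all genes by -0.34 without DEX and -0.29 with DEX, and on that scale Mcpt2, Mcpt8, Cma1, Tpsb2 and Cpa3 without DEX and Tpsb2 with DEX had small negative values.

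Over the proteases, DNP without DEX gave 1 call higher and 0 lower among 10, where 16.7% of all 13305 genes were called in either direction and 9.07% were called higher. DNP with DEX gave 2 calls higher, where 12.6% of all genes were called and 7.19% were called higher. With the block the counts were 2 and 2 higher, against 37.9% and 37.6% of all genes called. The members' median log2 fold change was 0.34 without DEX and 0.31 with DEX, and the median of all genes was -0.0007 and -0.02.

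**Figure D2:**
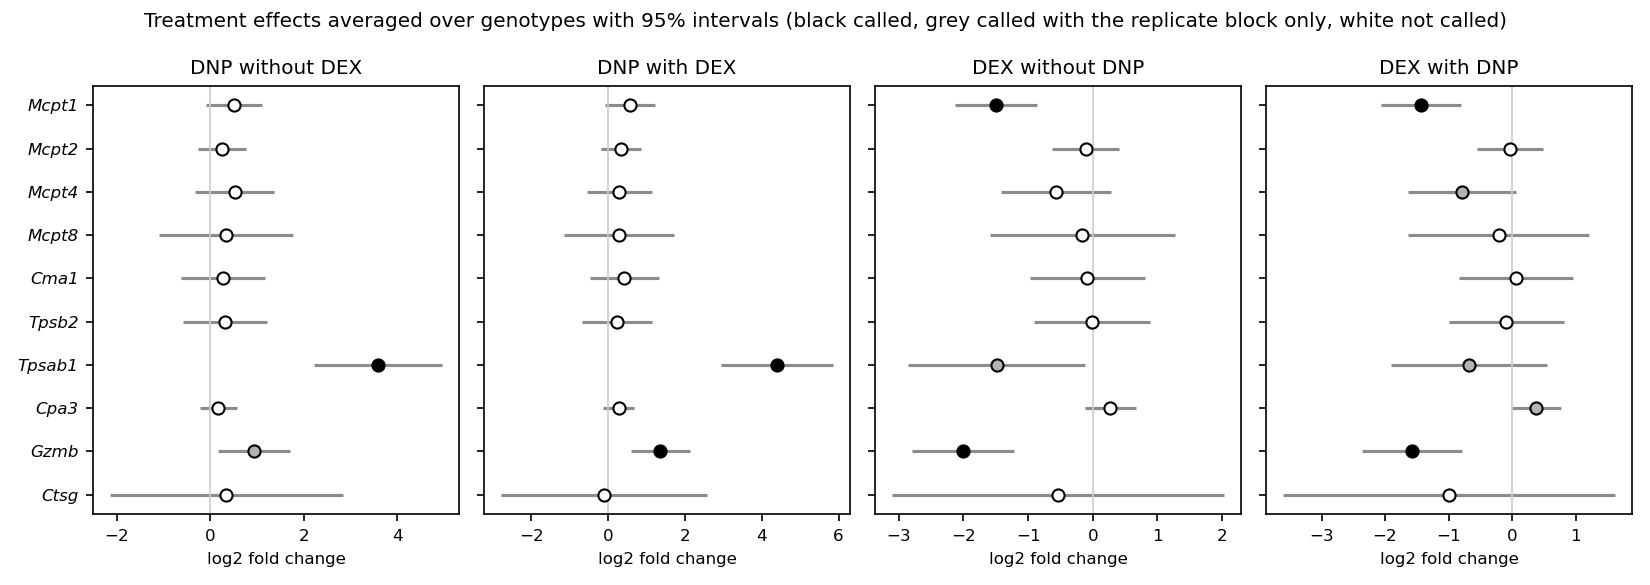
Log2 fold changes of the 10 proteases (points) with 95% intervals (lines) for DNP without and with DEX and for DEX without and with DNP, each averaged over the genotypes on an axis of its own. Black points passed edgeR's test, grey points passed it only with the set of libraries as a block, and white points passed neither; Tpsab1 stands apart with DNP (3.60 and 4.41), and Mcpt1 and Gzmb are the black points below 0 with DEX.

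DEX lowered Mcpt1 and Gzmb, with and without antigen. Mcpt1 was 6.02 and 3.21 CPM in PEP+/+ and 5.65 and 3.91 CPM in PEP-/- after IgE, and 0.912 and 1.64 CPM and 2.18 and 2.03 CPM after IgE DEX. After IgE DNP it was 6.24 and 7.76 CPM in PEP+/+ and 5.82 and 6.88 CPM in PEP-/-, and after IgE DNP DEX 2.60 and 1.94 CPM and 2.27 and 3.14 CPM. Each of the 8 libraries with DEX lay below each of the 8 without it. These levels rest on 14 to 125 reads per library.

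Without DNP, DEX lowered Mcpt1 2.83-fold (log2 fold change -1.50 ± 0.29, edgeR adjusted p = 0.00658), and with DNP 2.70-fold (-1.44 ± 0.29, edgeR adjusted p = 0.00845). Gzmb was 4.01-fold lower with DEX in the absence of DNP (-2.00 ± 0.36, edgeR adjusted p = 0.00452) and 2.98-fold lower in its presence (-1.58 ± 0.36, edgeR adjusted p = 0.0159). For Gzmb, each library with DEX lay below each library without it at the same antigen state. The Gzmb call with DNP was lost without the numbered PEP+/+ IgE DNP library (log2 -1.30), the numbered PEP-/- IgE DNP library (-1.47), the lettered PEP+/+ IgE DNP DEX library (-1.42) or the lettered PEP-/- IgE DNP DEX library (-1.47). Mcpt1 in both comparisons and Gzmb without DNP passed under all 23 alternatives.

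Within PEP+/+ and without DNP, both genes passed, with log2 fold changes of -1.83 for Mcpt1 (edgeR adjusted p = 0.035) and -2.37 for Gzmb (edgeR adjusted p = 0.0302). In PEP-/- the values were -1.17 (edgeR adjusted p = 0.192) and -1.64 (edgeR adjusted p = 0.128), and with the block both passed, at -1.15 and -1.67. Of all genes 3.18% passed in PEP+/+ and 3.34% in PEP-/-, and 15.6% and 14.7% with the block. With DNP neither gene passed within a genotype. Mcpt1 had -1.64 in PEP+/+ (edgeR adjusted p = 0.0571) and -1.23 in PEP-/- (edgeR adjusted p = 0.147), and Gzmb -1.62 (edgeR adjusted p = 0.129) and -1.54 (edgeR adjusted p = 0.151). With the block all 4 passed, at -1.66, -1.25, -1.58 and -1.55. There 3.03% of all genes passed in PEP+/+ and 3.28% in PEP-/-, and 18.9% and 18.1% with the block. The block also made Tpsab1 pass for DEX without DNP in both genotypes, at -1.57 in PEP+/+ and -1.24 in PEP-/-. The difference between the genotypes did not pass its own test for any member.

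The promoters of these 2 genes are shown because both fell with DEX. They cover the 250 bases before each start in GRCm38.p6 from RefSeq, chr14:56017714-56017963 on the plus strand for Mcpt1 and chr14:56262335-56262584 on the minus strand for Gzmb. Capitals mark matches to TGTGGT, the RUNX motif, and to TGANTCA, the AP-1 motif.

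Mcpt1: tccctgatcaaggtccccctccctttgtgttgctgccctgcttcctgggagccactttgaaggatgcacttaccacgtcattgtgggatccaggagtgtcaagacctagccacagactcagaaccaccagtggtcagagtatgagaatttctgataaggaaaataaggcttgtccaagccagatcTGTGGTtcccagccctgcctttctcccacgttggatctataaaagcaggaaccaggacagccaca

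Gzmb: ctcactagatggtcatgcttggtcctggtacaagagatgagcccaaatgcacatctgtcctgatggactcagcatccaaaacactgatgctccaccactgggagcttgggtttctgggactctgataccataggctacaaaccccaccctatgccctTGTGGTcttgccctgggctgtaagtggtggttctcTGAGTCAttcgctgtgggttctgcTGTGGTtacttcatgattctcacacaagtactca

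The RefSeq starts used here differ from the GENCODE M21 gene bounds given above for Mcpt1, Mcpt4, Mcpt8 and Gzmb, and the Gzmb window begins beyond the GENCODE bound at 56262260. The AP-1 letters began 58 bases before the RefSeq start of Gzmb and were in no other of the 7 windows, and 6.75% of all promoters hold them. The full palindromic glucocorticoid response element was found in none of the 7 windows and in 0.387% of all promoters. The E-box CATGTG was in the window of Ctsg alone, overlapping its RUNX letters (12.3% of all promoters), and the NFAT core GGAAA was in those of Cpa3, Mcpt1, Mcpt4, Mcpt8 and Ctsg (55.6% of all promoters). No match or missing match says that a factor binds or does not bind there.

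The remaining members did not pass the test for DEX, and with the block 3 more did. Tpsab1 had a log2 fold change of -1.49 ± 0.63 without DNP (edgeR adjusted p = 0.207) and was lower with DEX in 4 of 4 differences within a set. With the block its value was -1.41 (edgeR adjusted p = 0.000233, against 7.01e-08 to 0.491 over the 23 alternatives). With DNP its value was -0.68 ± 0.56 (edgeR adjusted p = 0.541), and with the block -0.57 (edgeR adjusted p = 0.0117, against 0.0117 to 0.999).

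Mcpt4 with DNP had a log2 fold change of -0.79 ± 0.39 (edgeR adjusted p = 0.249), and with the block -0.89 (edgeR adjusted p = 0.0489, against 0.0267 to 0.474 over 23 alternatives). It was 16.1 and 16.8 CPM in PEP+/+ and 12.2 and 18.2 CPM in PEP-/- after IgE DNP. After IgE DNP DEX it was 18.5 and 4.56 CPM in PEP+/+ and 8.13 and 6.57 CPM in PEP-/-, so the numbered PEP+/+ IgE DNP DEX library lay above all 4 IgE DNP libraries and the other 3 below them. Without that library the value was -1.43 and passed (edgeR adjusted p = 0.0267).

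Cpa3 went the other way. It was 34793 and 31678 CPM in PEP+/+ and 42979 and 32005 CPM in PEP-/- after IgE, and 39049 and 34517 CPM and 47679 and 37770 CPM after IgE DNP. After IgE DEX it was 45694 and 37907 CPM in PEP+/+ and 48373 and 38036 CPM in PEP-/-, and after IgE DNP DEX 57698 and 43487 CPM and 57856 and 46532 CPM. The means were highest with both agents, and the numbered library was the higher in each condition. Its log2 fold change with DEX was 0.27 ± 0.18 without DNP (edgeR adjusted p = 0.516) and 0.37 ± 0.18 with DNP (edgeR adjusted p = 0.236). It was higher with DEX in 8 of 8 differences within a set, and with the block the change with DNP passed (0.37, edgeR adjusted p = 0.0302, against 0.0302 to 0.482 over 23 alternatives). Cma1, Tpsb2, Mcpt2, Mcpt8 and Ctsg did not pass. Cma1 had a log2 fold change of -0.08 (95% interval -0.98 to 0.81) without DNP and 0.06 (-0.83 to 0.96) with DNP. Tpsb2 had -0.01 (-0.92 to 0.89) and -0.09 (-0.99 to 0.81), and Mcpt2 -0.11 (-0.62 to 0.41) and -0.03 (-0.54 to 0.49). The intervals of Mcpt8 (-0.16 and -0.21) and Ctsg (-0.54 and -0.99) were wider, and Mcpt4 without DNP had -0.57.

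Over the proteases, DEX without DNP gave 2 calls lower and 0 higher among 10, where 9.37% of all genes were called and 3.98% were called lower. DEX with DNP also gave 2 lower and 0 higher, where 10.7% were called and 4.99% were called lower. With the block there were 3 lower (26.7% of all genes called) and 4 lower with 1 higher (33.3% called). The comparisons of DNP and of DEX use the same libraries, and each treatment group stands in a DNP and in a DEX comparison. Their results are therefore not independent. The IgE DEX libraries (Gzmb at 272 to 945 CPM) enter both the fall of Gzmb with DEX without DNP and its rise with DNP in the presence of DEX. No member passed the interaction of DNP with DEX: 0 of 10 in edgeR, in edgeR with the block and in DESeq2. Of all genes 0.331% passed in edgeR, and 1.57% with the block. At an unadjusted edgeR p under 0.05 it was 0 of 10 members and 485 of all 13305 genes. The largest interaction among the members was that of Tpsab1, with 0.81 ± 0.83 (SE) on the log2 scale.

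The order of the conditions differed between these genes. Tpsab1 ran from PEP+/+ IgE DNP (102 ± 85.9 CPM, SD, n = 2) over PEP-/- IgE DNP, PEP+/+ IgE DNP DEX and PEP-/- IgE DNP DEX (41.1 ± 29.5 CPM) down to PEP-/- IgE DEX (2.10 ± 0.625 CPM), and the ranges of neighbours overlapped except at the step from the DNP to the other conditions. Gzmb ran from PEP-/- IgE DNP (4563 ± 707 CPM) to PEP+/+ IgE DEX (403 ± 186 CPM), with overlapping neighbours throughout. Cpa3 ran from PEP-/- IgE DNP DEX (52194 ± 8007 CPM) to PEP+/+ IgE (33235 ± 2203 CPM), also with overlapping neighbours.

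**Figure D3:**
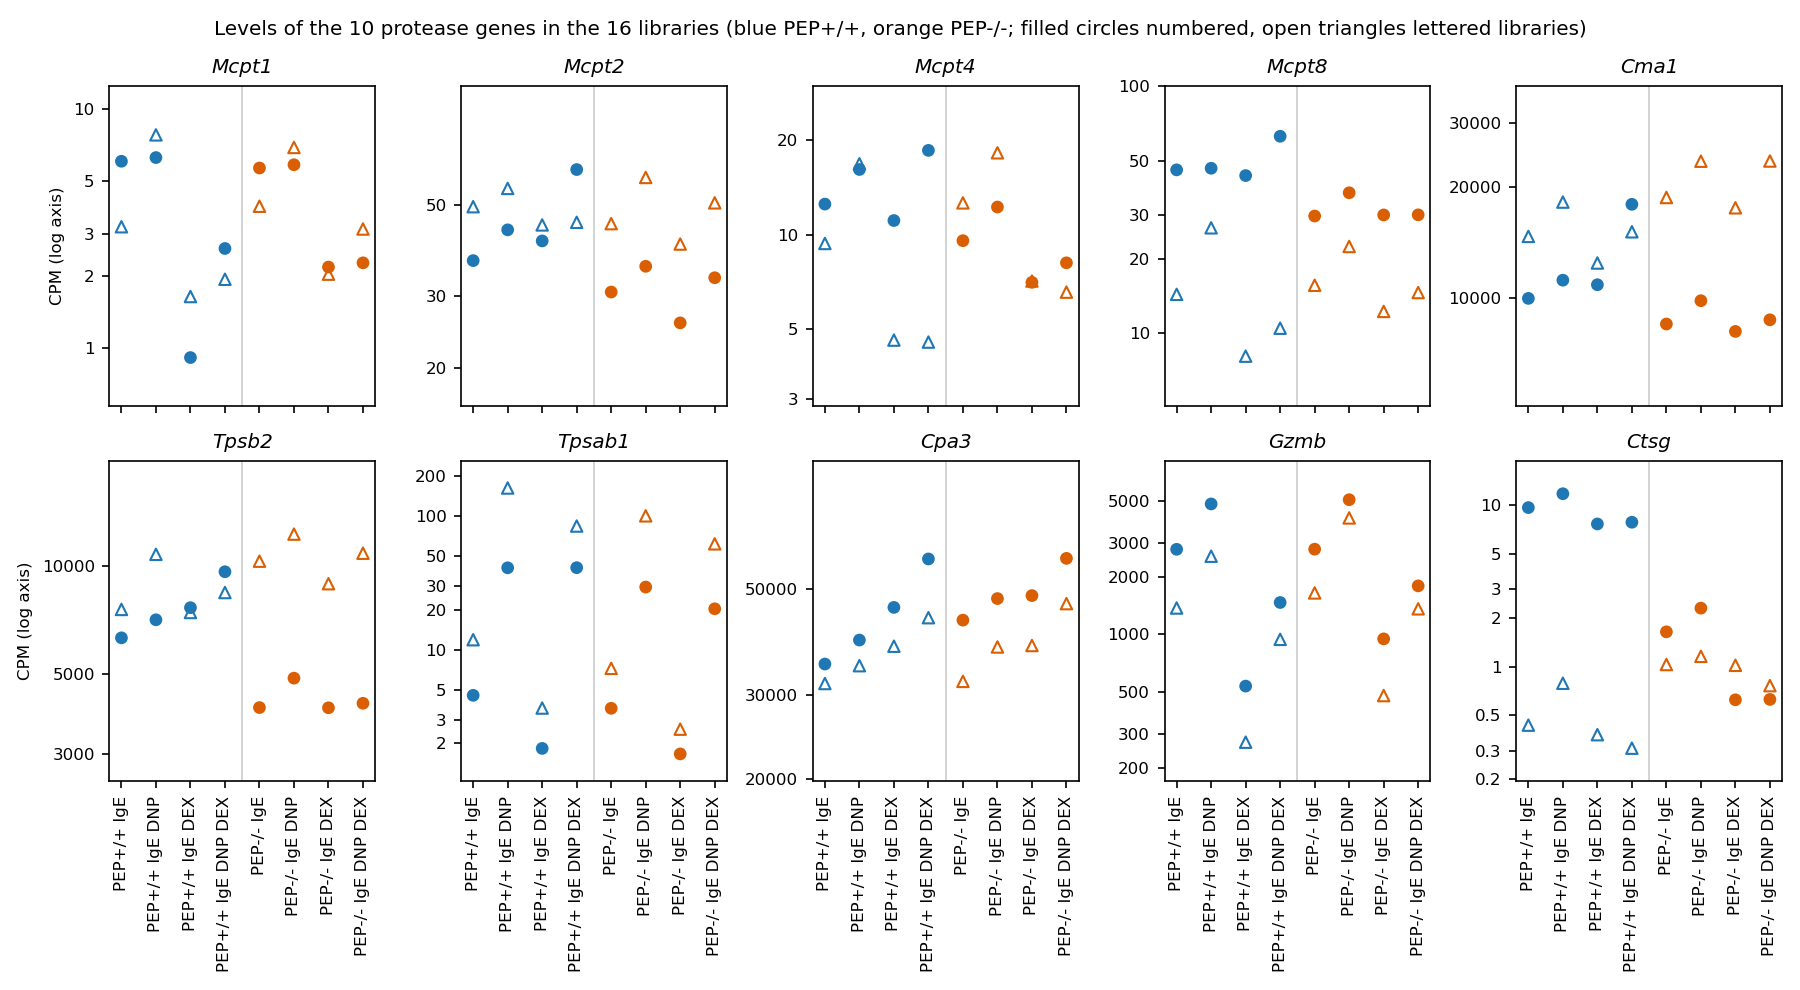
CPM of each protease on a log axis of its own in the 8 conditions, with blue for PEP+/+, orange for PEP-/-, filled circles for numbered and open triangles for lettered libraries. Tpsab1 rises with DNP (20.3 to 162 CPM against 1.66 to 11.9 CPM), Mcpt1 and Gzmb fall with DEX, and Ctsg is high only in the numbered PEP+/+ libraries (7.62 to 11.7 CPM).

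For the loss of PEP, no member passed the test averaged over the treatments. It was 0 of 10 in edgeR, where 1.59% of all genes passed, and 0 of 10 in DESeq2. At an unadjusted edgeR p under 0.05 it was 1 of 10 members and 1884 of all 13305 genes. Within the single treatments 0 of 40 tests passed in edgeR and in DESeq2, where 0.00752% of all genes passed in edgeR in each treatment. At an unadjusted edgeR p under 0.05 it was 0 of 40 tests, and 298 to 605 of all 13305 genes per treatment. No difference of the DNP and DEX effects between the genotypes was called for any member, with 0 of 40 interaction tests passed in edgeR and in DESeq2 and 0 of 40 at an unadjusted edgeR p under 0.05. Of all 13305 genes 0 passed in edgeR in each of these 4 interactions, and 30 to 95 were at an unadjusted p under 0.05. The lowest unadjusted edgeR p was 0.266, for Mcpt1 and DEX without DNP, where the effects differed by 0.66 on the log2 scale. These tests do not show that the genotypes respond alike, since groups held 2 libraries.

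With the block, 3 members passed for the loss of PEP, where 17.4% of all genes did. Gzmb was higher in PEP-/- (log2 fold change 0.44, edgeR adjusted p = 0.00554, against 0.00554 to 0.812 over 24 alternatives). Of these alternatives 1 was added after seeing the data and counted in each set. Gzmb was higher in 8 of 8 same-treatment differences within a set, by 0.0024 to 0.82 on the log2 scale. Tpsab1 was lower (-0.54, edgeR adjusted p = 0.0148, against 0.0148 to 0.889), and in 8 of 8 such differences (-1.02 to -0.13). Without the block the values were 0.40 ± 0.25 (edgeR adjusted p = 0.539) and -0.57 ± 0.42 (edgeR adjusted p = 0.636). Cpa3 was also higher in PEP-/- in 8 of 8 differences, by 0.004 to 0.30 on the log2 scale, and did not pass with or without the block.

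Ctsg was the third, and its value rests on 4 libraries. In the order IgE, IgE DNP, IgE DEX and IgE DNP DEX, the numbered PEP+/+ libraries held 9.62, 11.7, 7.62 and 7.81 CPM. The lettered PEP+/+ libraries held 0.434, 0.788, 0.379 and 0.312 CPM in the same order, or 5 to 9 reads each. The PEP-/- libraries held 0.622 to 2.30 CPM in the numbered and 0.761 to 1.16 CPM in the lettered set. The 4 numbered PEP+/+ libraries thus lay above the other 12.

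Averaged over all libraries the log2 fold change of Ctsg with the loss of PEP was -2.15 ± 0.85 (edgeR adjusted p = 0.269), and with the block -1.72 (edgeR adjusted p = 0.0355, against 1.43e-10 to 0.694). A fit with a genotype difference for each set, added after the values had been seen, gave -2.95 in the numbered libraries (edgeR adjusted p = 4.93e-05) and 0.98 in the lettered ones (edgeR adjusted p = 0.154). The difference between the sets was 3.93 ± 0.42 (edgeR adjusted p = 0.00205). Ctsg was 1 of 7 genes, or 0.0526% of all genes, that passed this test. In this fit the libraries of a genotype and set, 1 per treatment, stood as replicates. Whether they came from separate cultures is not given. The p-values of this fit, here and below, therefore do not measure a spread between mice or cultures.

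Tpsb2, Cma1 and Mcpt4 also lay lower in PEP-/- in the numbered set and higher in the lettered set, without passing the test of that difference. Tpsb2 was 4027 to 4869 CPM in the numbered PEP-/- libraries, 8915 to 12248 CPM in the lettered PEP-/- libraries, and 6303 to 10760 CPM in PEP+/+. Its genotype difference was -0.84 in the numbered set (edgeR adjusted p = 0.00384) and 0.31 in the lettered set (edgeR adjusted p = 0.248), and the difference of the sets was 1.15 ± 0.19 (edgeR adjusted p = 0.0508). Cma1 was 8105 to 9825 CPM in the numbered PEP-/- libraries and 17582 to 23569 CPM in the lettered ones, with genotype differences of -0.48 and 0.45 and a difference of the sets of 0.93 ± 0.22 (edgeR adjusted p = 0.219). Mcpt4 had -0.67 and 0.40 with a difference of 1.08 ± 0.37 (edgeR adjusted p = 0.724), and Mcpt8 -0.66 and 0.22 with 0.88 ± 0.31 (edgeR adjusted p = 0.788). Mcpt2 passed in the numbered set (-0.53, edgeR adjusted p = 0.0199, against -0.02 in the lettered set), and its difference of the sets did not pass (edgeR adjusted p = 0.708). In the lettered set Gzmb was the only member that passed (0.57, edgeR adjusted p = 0.02). Of all genes, 8.88% passed in the numbered and 4.86% in the lettered set.

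**Figure D4:**
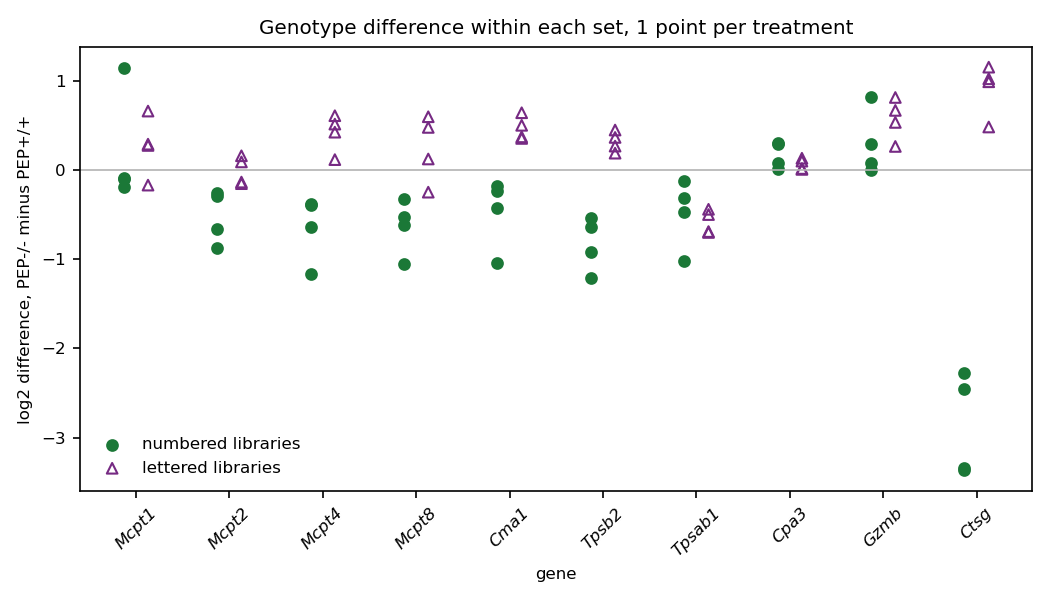
Log2 difference of each protease between PEP-/- and PEP+/+ libraries of the same set and treatment, with 4 points for the numbered (green circles) and 4 for the lettered libraries (purple triangles). For Ctsg, Tpsb2, Cma1 and Mcpt4 all numbered points lie below 0 and all lettered points above it, and for Gzmb and Cpa3 both sets lie above 0.

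Between the sets themselves, 8 of the 10 members passed with the set as a term, beside the 63.6% of all genes. Mcpt8 was 29.8 to 62.8 CPM in the numbered and 8.03 to 26.7 CPM in the lettered libraries, without overlap, and its log2 difference was -1.43 (edgeR adjusted p = 2.5e-05). Prss34, the other protease gene that marks basophils, was 36.6 to 59.4 CPM in the numbered and 10.2 to 14.0 CPM in the lettered PEP+/+ libraries, and 17.5 to 24.8 CPM and 17.8 to 24.4 CPM in PEP-/-. Tpsab1 was higher in the lettered libraries by 1.43, Cma1 by 0.77, Tpsb2 by 0.73 and Mcpt2 by 0.37 on the log2 scale, and Gzmb, Cpa3 and Ctsg were lower, with values of -0.75, -0.30 and -2.52. Mcpt1 and Mcpt4 did not pass, with -0.04 and -0.34.

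Markers of other cell types were read beside these levels. The 10 mast cell markers summed to 48555 to 81550 CPM, and the receptor genes Kit, Fcer1a and Ms4a2 were among them. They include Cpa3, which alone held 31678 to 57856 CPM. The neutrophil and myeloid precursor list, which includes Ctsg, summed to 8.01 to 11.8 CPM in the numbered PEP+/+ libraries. Ctsg alone held 7.62 to 11.7 CPM there, so that sum mostly restates Ctsg. In the other 12 libraries the list summed to 0.562 to 2.46 CPM. Of its 9 genes Ctsg alone passed the filter. Elane and Mpo had at most 2 reads, Ltf at most 2, S100a8 and S100a9 at most 3, and Camp 0 in each library. Prtn3 had at most 19 reads. The basophil list summed to 345 to 1005 CPM, most of it Cd200r3, which rose with DNP (0.50 and 0.68) and fell with DEX (-1.12 and -0.94). Of the cytotoxic lymphocyte list, which bears on Gzmb, Cd3e was at 0 in all libraries, Prf1 had at most 1 read and Gzma at most 2, and the list summed to 0.546 to 3.30 CPM against 272 to 5063 CPM of Gzmb. Ncr1, the only gene of that list to pass the filter, had 6 to 51 reads and rose with DNP without DEX (1.31). The macrophage list summed to 5.06 to 13.5 CPM and the eosinophil list to 5.41 to 27.7 CPM, with the eosinophil peroxidase Epx at 0. Sums of the basophil and eosinophil lists were 833 to 1005 CPM and 14.7 to 27.7 CPM after IgE DNP. After IgE DEX they were lower, at 345 to 485 CPM and 5.41 to 11.2 CPM. The single markers differed. For DNP and for DEX, each without the other, Prss34 had 0.008 and 0.08, Il3ra 0.11 and 0.22 and Mcpt8 0.34 and -0.16, and none passed. In the eosinophil list Siglecf rose with DNP (2.18) and had 0.73 with DEX, which did not pass. Ccr3 had 0.32 with DNP, which did not pass, and fell with DEX (-1.16). The part of these cell types in the members' results was not tested.

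Among the neighbours of the members at the chymase locus, 4 of the 8 listed genes passed the filter. All 4 rose with DNP without DEX, where 9.07% of all genes were called higher, and all 4 fell with DEX in the presence of DNP, where 4.99% were called lower. These calls were the same with the block. Gzmd and Gzme passed the filter only through their IgE DNP libraries, so the direction of their calls was fixed in advance. For them the shares of all genes are no measure. Gzmc, a granzyme gene, was 0.954 to 1.27 CPM after IgE and 11.4 to 30.3 CPM after IgE DNP, but 1.88 to 3.12 CPM after IgE DNP DEX. Its log2 fold change with DNP was 4.17 without DEX (edgeR adjusted p = 1.08e-05) and 1.15 with DEX (edgeR adjusted p = 0.0412), and it passed the interaction of DNP with DEX (-3.02, edgeR adjusted p = 0.0223). Gzmd had 12 to 40 reads and Gzme 8 to 32 reads per IgE DNP library, against 0 to 2 and 0 to 1 after IgE and 0 to 1 and 0 to 1 after IgE DNP DEX. Cma2, a chymase gene, passed in each of the 4 treatment comparisons, higher with DNP (0.68 and 0.86) and lower with DEX (-0.96 and -0.78). Within 2 mismatches 18.5% of the windows of Mcpt4 matched Cma2, and 0.649% of those of Gzmb matched Gzmc, so Cma2 is less certain. Gzmd and Gzme belong to a cluster of close granzyme copies and are uncertain too.

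Of 9 other genes of the tryptase family 2 passed the filter. Tpsg1, a membrane-bound tryptase gene, fell with DEX, by 1.34 on the log2 scale without DNP (edgeR adjusted p = 0.0147) and by 1.27 with DNP (edgeR adjusted p = 0.019). It was 433 to 713 CPM after IgE and 171 to 283 CPM after IgE DEX. Prss34 passed in none of the 6 comparisons with or without the block, and Tpsg1 also passed for DNP with DEX with the block (0.42).

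Of 7 genes for protease maturation and granule storage, 2 rose and 1 fell with DNP, both without and with DEX (9.07% and 7.19% of all genes called higher). With the block 4 rose and 1 fell in both, with Ctsc and Ctsl added, where 37.9% and 37.6% of all genes were called in either direction. Hdc, the enzyme that makes the histamine stored beside the proteases, rose by 3.12 and 2.12, and Srgn, the proteoglycan core protein that holds the proteases, rose by 0.79 and 0.98. Ndst2, the enzyme that sulfates heparin, had -0.67 and -0.49. With DEX, Hdc rose by 2.22 without and 1.21 with DNP, and Ctsc, the peptidase that activates the serine proteases by trimming their ends, rose by 1.51 without DNP (edgeR adjusted p = 0.00916). With the block 3 of the 7 rose with DEX without DNP and 4 with DNP, against 2 and 1 without the block. Of all genes 26.7% and 33.3% were called in either direction with the block.

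Of 13 protease inhibitor genes 11 passed the filter. With DNP, 6 rose without DEX and 4 with DEX, and 0 fell, where 9.07% and 7.19% of all genes were called higher. With the block 6 rose in both, and Serpinb9 fell with DEX present (-0.51), where 37.9% and 37.6% of all genes were called in either direction. Serpina3f rose by 5.50 and 2.79, Serpina3g by 2.59 and 1.61, and Serpinb1a, an inhibitor of chymases and cathepsin G, by 0.80 and 0.94. With DEX, Serpina3f rose by 4.75 without and 2.04 with DNP. Serpinb9, the inhibitor of granzyme B, fell by 1.17 with DEX in the presence of DNP (edgeR adjusted p = 0.0418). The inhibitors higher and lower with DEX numbered 2 and 0 without DNP and 2 and 1 with DNP. Of all genes 9.37% and 10.7% were called in either direction. With the block these counts were 4 and 2 without DNP and 6 and 2 with DNP, where 26.7% and 33.3% of all genes were called. For the loss of PEP Serpina3g passed with -1.45 (edgeR adjusted p = 0.0383), where 1.59% of all genes passed. With the block (17.4% of all genes) Serpina3f, at -1.04, and the maturation and storage genes Ctsl, Ctse and Ndst2, at 0.86, 0.38 and 0.38, passed as well. Serpina3f and Serpina3g belong to a family of close copies and are uncertain for that reason.

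Among the members themselves, log2 levels ran together most closely for Cma1 and Tpsb2 (Pearson r = 0.945 over 16 libraries), Mcpt2 and Tpsb2 (0.901) and Mcpt1 and Gzmb (0.874). The libraries share treatments, genotypes and sets, so these are descriptions of likeness. Of all genes tested, the most like Tpsab1 were Tmem120a and Kcnn4 (both 0.985), the most like Gzmb were Maob and S1pr2 (0.973 and 0.971), and the most like Mcpt1 were Slc16a10 and P2rx1 (0.939 and 0.927). For Mcpt8 they were Acat1 and Arl2bp (0.956 and 0.926), for Cpa3 Eif3e and Cops4 (0.963 and 0.938), and for Mcpt2 Trir and Ndufa11 (0.943 and 0.942). For Cma1 they were Tpsb2 and Stx4a (0.945 and 0.922), for Tpsb2 Cma1 and Atp9a (0.945 and 0.930), for Ctsg Tspan3 and Zdhhc2 (0.880 and 0.875), and for Mcpt4 Cyb5r3 and Calm3 (0.839 and 0.824).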

How the data were processed

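The authors aligned paired reads from poly(A) libraries with TopHat2 to GRCm38 with Ensembl 75, counted them with HTSeq and deposited raw counts for 39179 genes. The strand setting of the counting is not given in the sources used here. Genes were located in GENCODE M21, with 37607 identifiers (96.0%) matched. Counts of 16 libraries were normalized with TMM and fitted in edgeR 4.0.16 (R 4.3.3) by quasi-likelihood with 8 condition means and 8 residual degrees of freedom. The filter on low counts (minimum 10) left 13305 genes, p-values were Benjamini-Hochberg adjusted over all of them, and calls needed an adjusted p under 0.05. Log2 CPM for the likeness used a prior count of 2.

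The members and all lists were chosen with earlier results of these data known. All members were named. From each other list up to 4 called genes per comparison with the largest changes, 5 check genes and the 2 genes most like each member were named. Libraries of the same set deviated together in 28 of 28 pairs of conditions (r from 0.453 to 0.799), so the set (numbered or lettered titles) was used as a block where it changed a call. The replicates of a condition differed by more than counting noise (chi-square per degree of freedom 36.0 to 106). Alternatives were DESeq2 1.42.0, its size factors, library totals, totals without the members, no filter, only the conditions compared, the block and each library left out. The term of set by genotype was added after seeing the data. The fit was also run on simulated counts that held no difference between the sets. That run says nothing about the effect of the sets in these data. Promoters came from RefSeq (GRCm38.p6). The 5 rows that name no gene stayed out of all totals; of all counted alignments or reads per library they held 4.69% to 11.0% outside genes, 1.90% to 2.50% ambiguous and 21.5% to 37.8% not unique.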

Additional observations from a re-analysis of the deposited data

Results flagged for a closer look

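Ctsg is the member whose genotype difference depended on the set of libraries: the log2 difference between PEP-/- and PEP+/+ BMMCs was larger by 3.93 in the lettered than in the numbered libraries (edgeR adjusted p = 0.00205 for the difference itself). It was lower in PEP-/- in 4 of 4 treatments of the numbered set and higher in 4 of 4 of the lettered set. The fit behind this p-value was added after the values had been seen. It took libraries of different treatments as replicates.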

How the results depend on the processing

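Of 1380 values of members under alternatives, 1249 kept direction and side of the threshold, 19 gained a call, 9 lost one and 103 changed sign, none of them a called value. The count of members called changed as follows, and the cause was not tested. For DNP without DEX it was 2 instead of 1 with the replicate block, DESeq2 or no filter. For DNP with DEX it was 1 instead of 2 on library totals, and 1 to 2 with single libraries left out. For DEX without DNP it was 3 with the block or no filter instead of 2. For DEX with DNP it was 5 with the block and 3 with no filter instead of 2, and 1 to 3 with libraries left out. For PEP loss it was 3 with the block, 2 with no filter, 3 in the numbered and 1 in the lettered libraries instead of 0. For PEP loss within treatments it was 2 of 40 with no filter instead of 0. For treatment effects within a genotype it was 18 of 80 with the block, 11 in DESeq2, 14 with no filter, 1 with only the conditions compared and 3 to 6 with libraries left out, instead of 6. Beyond the values given in the report the block changed no other call among the members' comparisons over both genotypes.

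Of the alternatives other than leaving out a library, these gave a value with the opposite sign. On library totals they were -0.0898 for Mcpt2 DNP without DEX, -0.00181 for Mcpt8 DNP without DEX, -0.0708 for Cma1 DNP without DEX, -0.0356 for Tpsb2 DNP without DEX, -0.168 for Cpa3 DNP without DEX, -0.0539 for Tpsb2 DNP with DEX and 0.0251 for Mcpt8 DNP by DEX interaction. With the block Tpsb2 had 0.0171 for DEX without DNP and Cma1 -0.0134 for PEP loss. With only the conditions compared Tpsb2 had 0.0159 and Mcpt2 0.00388, for Tpsb2 DEX without DNP and Mcpt2 DEX with DNP. In the lettered libraries PEP loss gave 0.40 (Mcpt4), 0.22 (Mcpt8), 0.31 (Tpsb2) and 0.98 (Ctsg), and in the numbered ones -0.48 (Cma1). Library totals moved the share of higher genes among all called from 54.5% to 21.2% (DNP without DEX), 57.0% to 24.4% (DNP with DEX), 57.6% to 46.7% (DEX without DNP) and 26.9% to 16.8% (PEP loss).

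With each library left out in turn, sign changes fell in these ranges. For DNP without DEX they were Cma1 -0.12 to 0.61, Tpsb2 -0.10 to 0.72, Ctsg -1.16 to 2.11. For DNP with DEX they were Mcpt4 -0.34 to 0.67, Mcpt8 -0.59 to 1.12, Cma1 -0.015 to 0.75, Tpsb2 -0.18 to 0.57, Ctsg -1.89 to 1.57. For DEX without DNP they were Mcpt2 -0.28 to 0.047, Mcpt8 -0.996 to 0.38, Cma1 -0.41 to 0.26, Tpsb2 -0.35 to 0.40, Ctsg -2.21 to 1.23. For DEX with DNP they were Mcpt2 -0.18 to 0.19, Mcpt8 -1.09 to 0.20, Cma1 -0.37 to 0.46, Tpsb2 -0.50 to 0.34, Ctsg -2.78 to 0.52. For the interaction of DNP with DEX they were Mcpt1 -0.20 to 0.31, Mcpt2 -0.074 to 0.31, Mcpt4 -0.85 to 0.16, Mcpt8 -0.91 to 0.79, Cma1 -0.28 to 0.55, Tpsb2 -0.49 to 0.36, Cpa3 -0.011 to 0.23, Ctsg -2.23 to 1.22. For PEP loss they were Mcpt4 -0.39 to 0.11, Mcpt8 -0.62 to 0.022, Cma1 -0.12 to 0.24, Tpsb2 -0.34 to 0.0087. Depth limits Ctsg (5 to 131 reads) and Mcpt1 (14 to 125 reads) most.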
